A study of Mus musculus with 112 samples.

Results

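Mammary tumours of an AKXD mouse panel fell into a high and a low level of signal on a single probe set of H2-D1, one of the classical MHC class I heavy chain genes (MHC, major histocompatibility complex). The tumours arose in mice of AKXD x PyMT background, in which the polyoma middle T antigen is driven by the MMTV promoter, and AKXD sublines are recombinant inbred lines made from AKR/J and DBA/2J. All tumours carried the transgene, no subline was a control, and the labels give no ages. The 2 groups were chosen by measured values: 52 of the 56 tumours, from 17 of 18 sublines, were split on 1 H2-D1 probe set of the MOE430A array (array A), where a log2 value above 7.7 is the high level (28 tumours) and one below it the low level (24 tumours). The other 4 tumours, all 3 of subline 23 and tumour 3 of subline 25, were left out by the same rule. The same tumours were then read on the MOE430B array (array B), without tumour 3 of subline 11, which left 27 high and 24 low tumours. Each sample was a tumour of a separate animal by its label, and a tumour holds several cell types, so fewer cells of a type and less RNA per cell cannot be told apart.

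Class I molecules are a heavy chain with beta-2 microglobulin and show peptides from inside the cell to CD8 T cells and natural killer cells. Class II molecules are an alpha and a beta chain and show peptides from outside the cell to CD4 T cells. The genes of both, with the complement and tumour necrosis factor genes of class III, lie together in the H2 complex of chromosome 17, which is among the most variable parts of the mouse genome and is inherited largely as a block called a haplotype. AKR/J carries the k haplotype and DBA/2J the d haplotype. An array probe is a short stretch of 1 sequence, so a probe set can read differently for 2 alleles of a gene. Genotypes at H2 were not used here, and the levels are therefore called high and low and not by haplotype.

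The region just upstream of the classical class I genes is shown because its elements are those through which the genes respond to inflammatory signals. The 250 bases before the RefSeq start are at chr17:35262844-35263093 on the plus strand for H2-D1 and at chr17:34000348-34000597 on the minus strand for H2-K1 (assembly GRCm38.p6). For H2-K1 this is the more upstream of 2 listed starts. Capitals mark a core of enhancer A (GGATTCC), a core of the interferon response element (TTTCACT), a CRE-like X box (TGACGC) and a CCAAT box (CCAATC), each searched on both strands; no matches overlapped.
H2-D1: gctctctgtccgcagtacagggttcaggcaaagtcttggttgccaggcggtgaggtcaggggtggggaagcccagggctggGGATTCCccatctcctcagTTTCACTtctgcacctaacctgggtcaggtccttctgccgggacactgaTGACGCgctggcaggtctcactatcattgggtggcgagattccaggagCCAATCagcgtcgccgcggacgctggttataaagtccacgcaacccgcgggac
H2-K1: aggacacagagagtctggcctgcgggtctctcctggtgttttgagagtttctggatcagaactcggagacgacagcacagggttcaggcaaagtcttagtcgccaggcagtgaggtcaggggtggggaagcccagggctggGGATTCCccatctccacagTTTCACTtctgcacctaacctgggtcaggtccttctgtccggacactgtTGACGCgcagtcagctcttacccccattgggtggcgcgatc
All 4 motifs were in the H2-D1 window and the first 3 in that of H2-K1. In H2-D1 the X box began at -101 and the CCAAT box at -53, counted from the start, and in H2-K1 the X box began at -41. At the spacing of H2-D1 a CCAAT box would fall outside the H2-K1 window, so its absence there shows no difference between the genes. Of 32851 promoter windows of RefSeq genes, 3.17% held the enhancer A core, 3.7% the core of the interferon response element, 6.12% the X box and 14.6% the CCAAT box, and 0.00609% held all of them. The sequences are those of the reference strain, not of the tumours, and a match of letters is a description only.

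On the probe set that made the split, the 28 high tumours ran from 8.74 to 11.62 on the log2 scale, with a median of 9.68. The 24 low tumours ran from 5.18 to 5.95, with a median of 5.65. Among these 52 tumours none lay between 5.95 and 8.74, so the values just inside and just outside the limit are those 2. Of the 4 tumours left out, 3 did lie between them. These values chose the groups and carry no test.

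**Figure D1:**
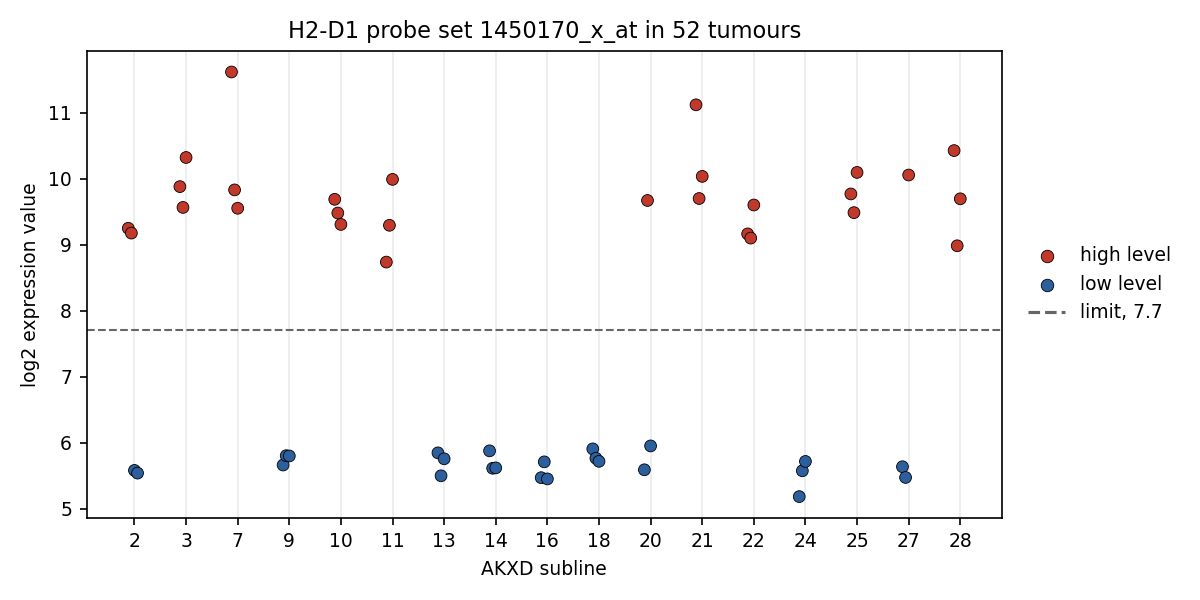
Log2 expression value of H2-D1 probe set that made the split (y axis) in each of 52 tumours, by AKXD subline (x axis), with points coloured by level and the limit of 7.7 dashed. Sublines 2, 20 and 27 have tumours on both sides of the limit, and the other 14 lie on 1 side.

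Tumours of a subline mostly shared a level. In 8 sublines (3, 7, 10, 11, 21, 22, 25 and 28; 24 tumours) all were high, and in 6 (9, 13, 14, 16, 18 and 24; 18 tumours) all were low. Sublines 2, 20 and 27, with 10 tumours, held both. In subline 2, tumours 1 and 2 were high and tumours 3 and 4 low. In subline 20 tumour 2 was high, and in subline 27 tumour 3 was high, with the other 2 tumours of each low. The array A values of the 4 tumours left out were 5.95, 6.98 and 7.78 in subline 23 and 8.07 in tumour 3 of subline 25.

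Other probe sets of H2-D1 did not follow a common direction. H2-D1 had 9 probe sets, of which 4 parted the tumours without overlap. Outside the class I heavy chain genes this held for 2 of 22590 array A probe sets (0.00885%). Of the 4, the 1 that made the split did so by the rule, and on the other 3 the order was turned. On the first of these the high tumours ran from 6.26 to 6.95 (median 6.68) and the low tumours from 9.64 to 11.73 (median 10.54). On the second, the brightest of the 3, the high tumours ran from 7.91 to 8.86 (median 8.30) and the low tumours from 10.47 to 12.31 (median 11.31). On the third they ran from 6.59 to 7.64 (median 7.14) and from 8.499 to 10.52 (median 9.45). The tumours labelled high are thus the lower ones on all 3. On the remaining 5 probe sets the levels overlapped, and the difference of subline means (high minus low) lay between -0.41 and 0.03. "High" and "low" therefore name the signal on 1 probe set and not the amount of H2-D1 messenger RNA.

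Over all class I heavy chain genes there were 38 probe sets (36 of them from array A and the other 2 from array B), and they are given as values because their sequences are alike and probes can be shared. The levels overlapped on 34 of them, all but the 4 of H2-D1 above, with differences from -0.53 to 0.27 and a median of -0.01. H2-K1, the other classical heavy chain measured by several probe sets, had 4, with differences from -0.33 to 0.01. On its brightest the high tumours ran from 12.39 to 13.78 and the low tumours from 12.78 to 13.81. Among the non-classical genes, H2-M3, which presents formylated peptides, differed by -0.11 and H2-Q10, a secreted heavy chain, by 0.12.

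**Figure D2:**
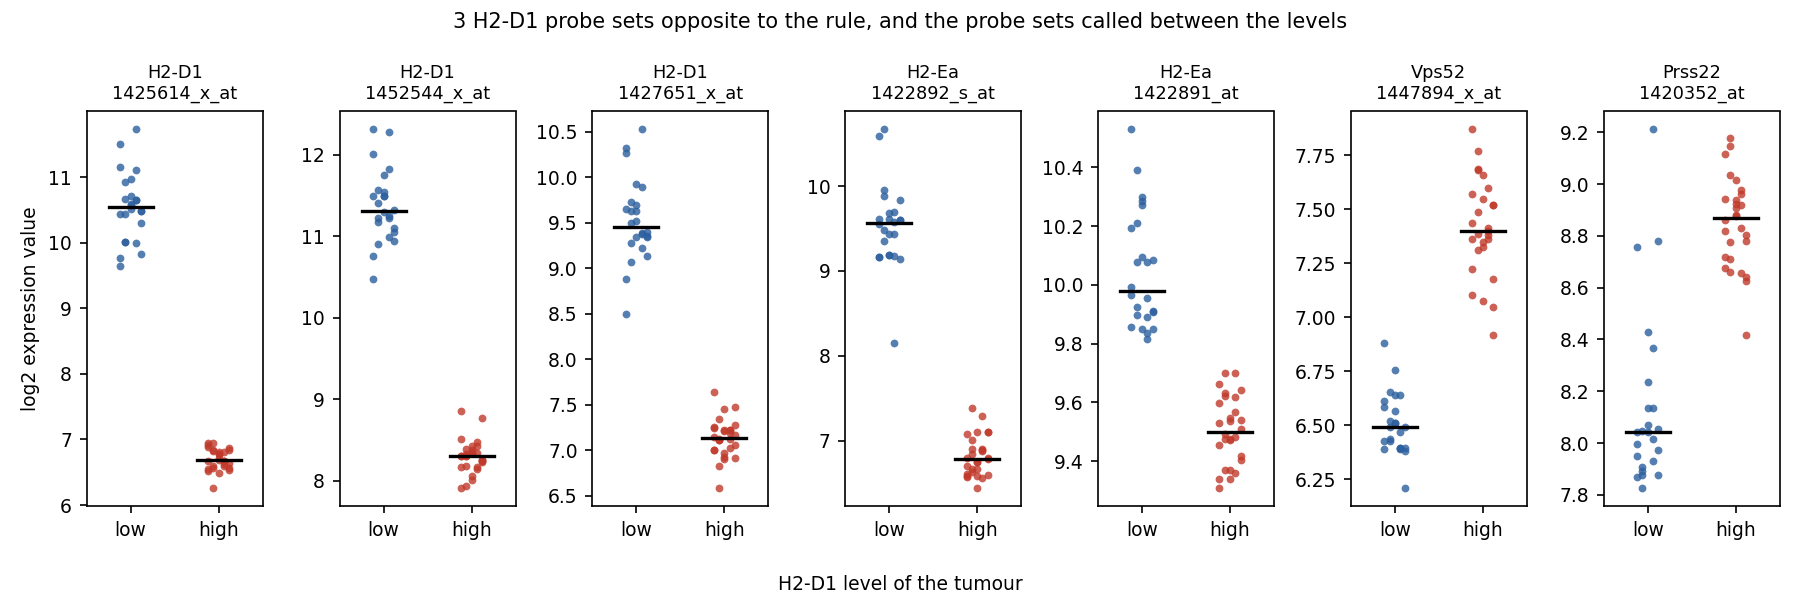
Log2 expression value (y axis, a separate scale in each panel) of 3 H2-D1 probe sets and of the 4 probe sets called between the levels, with each point a tumour and the bar the median; array A, except Vps52 on array B. The levels do not overlap in any panel but that of Prss22, where the 3 low tumours of subline 14, and 1 other at 8.43, lie above the lowest high tumour.

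Which other genes went with the split was tested on the means of the tumours of a subline and level, because tumours of 1 subline label are not independent. This gave 11 high and 9 low units. Sublines 2, 20 and 27 gave 1 of each, so each of them counts as 2 units, and the results without these sublines stand beside each gene (limma, Benjamini-Hochberg adjustment over all probe sets of an array, called where the adjusted p is under 0.05). H2-Ea, an alpha chain of class II, was lower at the high level, and Prss22, a serine protease of the tryptase family, and Vps52, a subunit of the GARP complex that returns vesicles to the Golgi, were higher. All 3 genes lie on chromosome 17. On array A 3 of 22590 probe sets were called, 0.0133% (1 higher, 0.00443%, and 2 lower, 0.00885%), and on array B 1 of 22509, 0.00444%. At an unadjusted p under 0.05 the numbers were 733 (3.24%) and 920 (4.09%).

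H2-Ea lies 93 genes before H2-D1 in the gene order of GRCm38.p6. On the probe set with the largest difference the high tumours ran from 6.44 to 7.38 (median 6.79) and the low tumours from 8.15 to 10.67 (median 9.57). The groups did not overlap, as on 2 of the array A probe sets tested (0.00885%), both of H2-Ea. The subline means were 6.83 ± 0.19 (SD, n = 11) and 9.55 ± 0.33 (SD, n = 9), a difference of -2.72 ± 0.11 (SE; limma adjusted p = 3.81e-13), or 6.58-fold. On a second, brighter probe set the high tumours ran from 9.31 to 9.70 and the low from 9.82 to 10.53, and the difference was -0.53 ± 0.05 (limma adjusted p = 7.08e-06). With only the 14 sublines that lay on 1 level the differences were -2.65 and -0.55 (limma adjusted p = 2.07e-10 and 3.67e-05). On the third probe set of H2-Ea, which was dim (means 4.56 and 4.57), the difference was -0.01 ± 0.03 (limma adjusted p = 0.9998). The size of the H2-Ea difference thus depended on the probe set.

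Vps52 lies 125 genes before H2-D1. On its array B probe set the high tumours ran from 6.92 to 7.87 (median 7.40) and the low tumours from 6.21 to 6.88 (median 6.49), without overlap, as on 1 array B probe set tested (0.00444%). The subline means were 7.43 ± 0.16 (SD, n = 11) and 6.50 ± 0.08 (SD, n = 9), a difference of 0.93 ± 0.06 (SE; limma adjusted p = 1.66e-09). With only the sublines on 1 level it was 0.85 (limma adjusted p = 5.36e-06). A brighter Vps52 probe set on array A (means 8.98 and 8.88) differed by 0.10 ± 0.08 (limma adjusted p = 0.9998).

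Prss22 lies 542 genes before H2-D1, beyond the 250 genes taken as its neighbours. On its 1 probe set the high tumours ran from 8.42 to 9.18 (median 8.87) and the low tumours from 7.83 to 9.21 (median 8.04). The groups overlapped: the 3 tumours of subline 14 and 1 other low tumour, at 8.43, were above the lowest high tumour. The subline means were 8.86 ± 0.09 (SD, n = 11) and 8.12 ± 0.31 (SD, n = 9), a difference of 0.74 ± 0.09 (SE; limma adjusted p = 0.000385). With only the sublines on 1 level it was 0.63 and did not pass (limma adjusted p = 0.256). With a fibroblast score among the covariates, an alternative added after the data were seen, it was 0.66 and did not pass (limma adjusted p = 0.0883).

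Sublines 2, 20 and 27 allowed the levels to be compared within a subline label, with 4 high and 6 low tumours. Tumours that share a label parted here on H2-D1, H2-Ea and Vps52, and whether their labels hold, or the mice shared a genotype, was not tested. On the H2-Ea probe set with the largest difference the high tumours read 6.91 and 6.58 in subline 2, 6.56 in subline 20 and 7.30 in subline 27. The low tumours read 9.61 and 9.44, 9.84 and 10.59, and 9.60 and 9.16 in the same sublines. In each of these sublines the low tumours were above the high ones. With the subline as a fixed term the difference was -2.83 ± 0.24 for H2-Ea and 0.97 ± 0.09 for Prss22 (SE; limma adjusted p = 0.00511 for each), and on array B it was 1.11 ± 0.09 for Vps52 (limma adjusted p = 0.00220). These were the only calls of this fit, 2 of 22590 (0.00885%) and 1 of 22509 (0.00444%). The brighter H2-Ea probe set differed by -0.48 and was not called (limma adjusted p = 0.709).

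Chromosome 17 was then set apart from the other chromosomes. On array A all 3 calls lay among its 929 tested probe sets, and on array B the 1 call among its 546. Of the probe sets placed on other chromosomes, limma called 0 of 19397 on array A (594 at an unadjusted p under 0.05, 3.06%) and 0 of 13939 on array B (584, 4.19%). On chromosome 17 the unadjusted share was 8.18% on array A, with 11.4% among 237 probe sets of the neighbours and 7.08% among 692 beyond them. On array B it was 8.79%, with 12.9% of 93 and 7.95% of 453. Whether these shares differ was not tested.

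**Figure D3:**
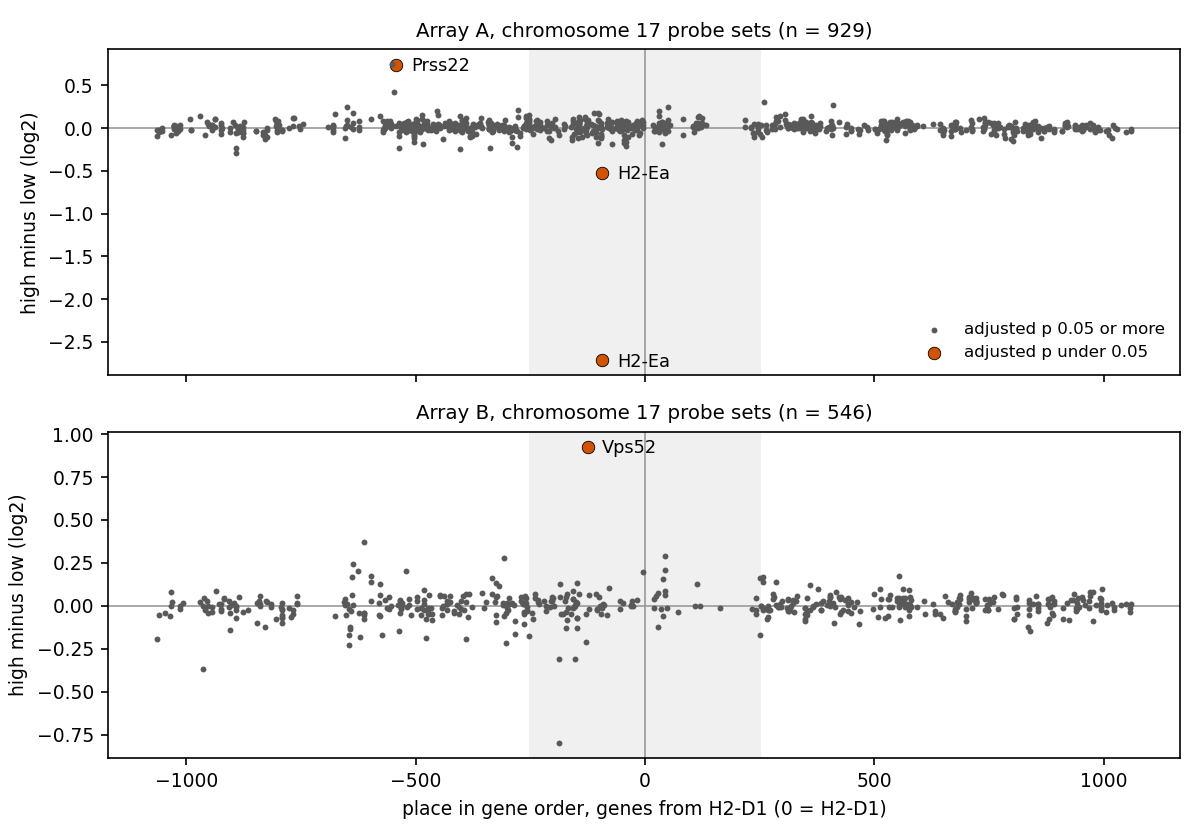
Difference between the levels (high minus low, log2, y axis) of each tested chromosome 17 probe set against its place in gene order counted from H2-D1 (x axis), for array A (929 probe sets) and array B (546). Orange points are called and named, grey points are not, and the shaded band spans the 250 genes on either side; no probe set beyond H2-D1 is called.

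Large differences on chromosome 17 did not all pass. Dcpp1, a demilune cell and parotid protein gene 552 genes before H2-D1, differed by 0.75 on array A (limma adjusted p = 0.9998), and Zfp871, a zinc finger gene, by -0.80 on array B (limma adjusted p = 0.968). Both were chosen after their values were seen. Abcf1, which acts in translation initiation and lies 51 genes after H2-D1, differed by 0.24 ± 0.05 on 1 probe set (limma adjusted p = 0.215). Its other probe sets differed by -0.04 to 0.09, the brightest by 0.02 (limma adjusted p = 0.9998 for each). The results below are of the first. With every tumour as a unit, which counts tumours of 1 subline as independent, 10 probe sets were called on each array (0.0443% on array A and 0.0444% on array B), and Abcf1 was among them. Without subline 27 Abcf1 was also called (limma adjusted p = 0.00262).

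Subline 14 stood with the low sublines on the H2-D1 probe set of the split, on Vps52 and on the brighter H2-Ea probe set. It stood with the high sublines on the single probe set of Prss22, 542 genes before H2-D1. On the Abcf1 probe set above, 51 genes after H2-D1, the mean of subline 14 was 10.24. The other low sublines ran there from 10.11 to 10.56 and the high ones from 10.33 to 10.62. Its 3 tumours read 5.87, 5.61 and 5.62 on the H2-D1 probe set of the split, and 6.39, 6.40 and 6.61 on Vps52. For the brighter H2-Ea probe set its mean was 9.97 ± 0.20 (SD, n = 3), and the other low sublines ran from 9.85 to 10.31. For Prss22 its tumours read 9.21, 8.78 and 8.76, with the other low sublines at means of 7.91 to 8.21 and the high sublines at 8.74 to 9.03. On the H2-Ea probe set with the largest difference its tumours read 8.15, 9.60 and 9.56, and its mean of 9.10 ± 0.82 (SD, n = 3) lay below the other low sublines (9.36 to 10.21) and above the high ones (6.56 to 7.30).

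Without subline 14 limma called 5 of 22509 probe sets on array B (0.0222%), Vps52 and 4 others, and on array A 6 of 22590 (0.0266%), the 3 added ones not placed. The 4 others on array B were chosen because, among the fits that leave out 1 subline, they were called only in that without subline 14, so where that subline lies on them follows from the choice and supports nothing. Mapk14, the p38 alpha stress kinase 307 genes before H2-D1, had a mean of 9.46 in subline 14, of 9.00 to 9.23 in the other low sublines and of 9.19 to 9.60 in the high ones. Zfp945, a zinc finger gene 612 genes before it, had 7.68, against 6.74 to 7.03 and 7.17 to 7.71. Zfp942, 637 genes before it, had 4.95, against 4.47 to 4.67 and 4.55 to 5.02, and Zfp983, 646 genes before it, had 4.60, against 4.78 to 4.84 and 4.51 to 4.74. The last 2 are dim. The differences without subline 14 were 0.32, 0.46, 0.29 and -0.19 in the same order. Other probe sets of these genes differed by less, except 1 of Zfp983 at -0.23 (limma adjusted p = 0.586).

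**Figure D4:**
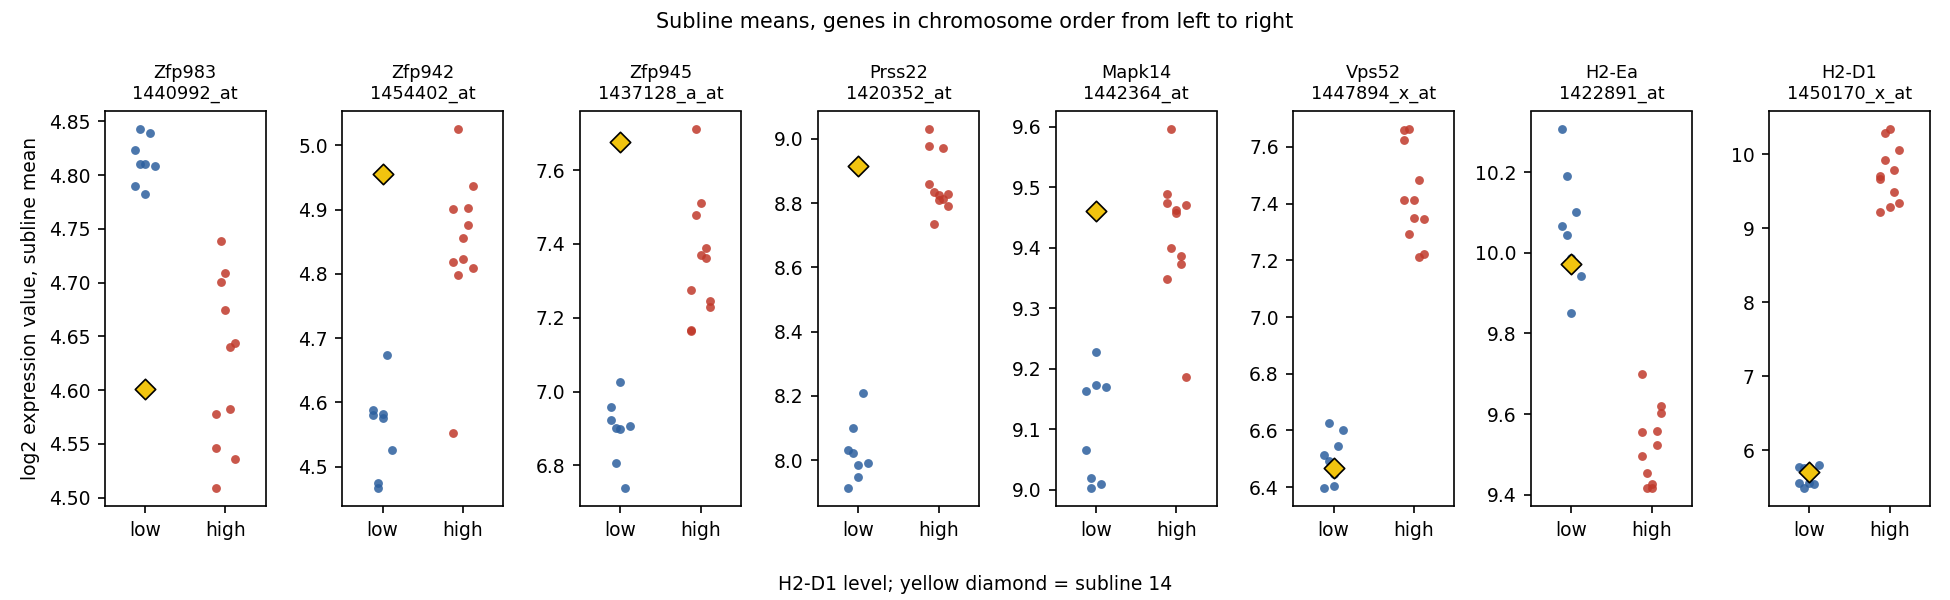
Subline means (log2 expression value, y axis, a separate scale in each panel) at the low and high level for 8 probe sets, ordered along chromosome 17 from left to right. The yellow diamond is subline 14, which lies in the high range for the first 5 genes, of which the 4 on array B were chosen by a fit without it, and in the low range for Vps52, the brighter H2-Ea probe set and H2-D1.

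The genes that supply peptides to class I molecules were next. Of 15 measured genes for class I antigen processing, 0 were called by limma (2 at an unadjusted p under 0.05), with a median difference of 0.03 beside 0.01 over all array A probe sets. Over those probe sets 3.24% had an unadjusted p under 0.05. Tap1 and Tap2, the subunits of the peptide transporter, differed by -0.17 (95% interval -0.36 to 0.01) and 0.16 (0.03 to 0.30). Psmb9, an immunoproteasome subunit, differed by 0.17 (-0.02 to 0.37), and Calr, a chaperone of the heavy chain, by -0.07 (-0.13 to -0.01). Of 14 class II genes only H2-Ea was called, and the list's median was -0.02. H2-Ab1, the beta chain of the other class II molecule, differed by -0.11 (-0.33 to 0.11), and H2-Eb1, the partner of H2-Ea, by -0.09 (-0.31 to 0.12). Of 41 class III genes 0 were called by limma (0 at an unadjusted p under 0.05), with a median of 0.02.

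Lists of immune cells, stroma and epithelium were described in the same way, and the part of tumour composition in the results was not tested beyond these values. No member of the lists of interferon-stimulated genes (19 measured, median -0.09), T cells (11, 0.02), NK cells (8, 0.03), macrophages (13, 0.02), dendritic cells (7, 0.04) or neutrophils (8, 0.02) was called by limma, and 0 had an unadjusted p under 0.05. Among B and plasma cell genes 0 of 8 were called (1 unadjusted), that 1 being Jchain, the joining chain of secreted antibody, at -0.60 (-1.09 to -0.11). Over all array A probe sets the unadjusted share was 3.24%. Of 10 fibroblast genes 0 were called, 4 had an unadjusted p under 0.05 and 9 were below 0, with a median of -0.15. Those 4 were Postn at -0.26, Col1a2 at -0.26, Col3a1 at -0.24 and Col1a1 at -0.25, which encode periostin and fibrillar collagens. All 10 skeletal muscle genes were above 0, with a median of 0.23, and 0 had an unadjusted p under 0.05. Of the epithelial lists 0 members were called. Below 0 were 9 of 12 luminal genes (median -0.02, 1 unadjusted) and 8 of 9 basal and myoepithelial genes (-0.07, 0 unadjusted). Milk protein genes had 9 of 10 below 0 (-0.10, 0 unadjusted) and skin keratinocyte genes 2 of 7 (0.02, 0 unadjusted). The mean log2 level of fibroblast genes, like that of each list on array A, overlapped between the levels. With adipocyte, T cell, B and plasma cell, and muscle scores as covariates, the 3 array A calls and the array B call were made again, with 1 more on array A, Znrd1as, a chromosome 17 neighbour at 0.23 (limma adjusted p = 0.0311). The scores were made on each array. On array B the T cell score and the B and plasma cell score rested on 1 gene each, and the adipocyte and muscle scores on 2 each. With the fibroblast score added to these scores, both H2-Ea probe sets and Vps52 were called and Prss22 was not. Msh5, a class III region neighbour, was called there on 1 probe set at -0.20 (limma adjusted p = 0.0491). Another Msh5 probe set, its brightest, differed by 0.05 in the fit without covariates (limma adjusted p = 0.9998). Znrd1as and Msh5 were named after their values were seen.

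**Figure D5:**
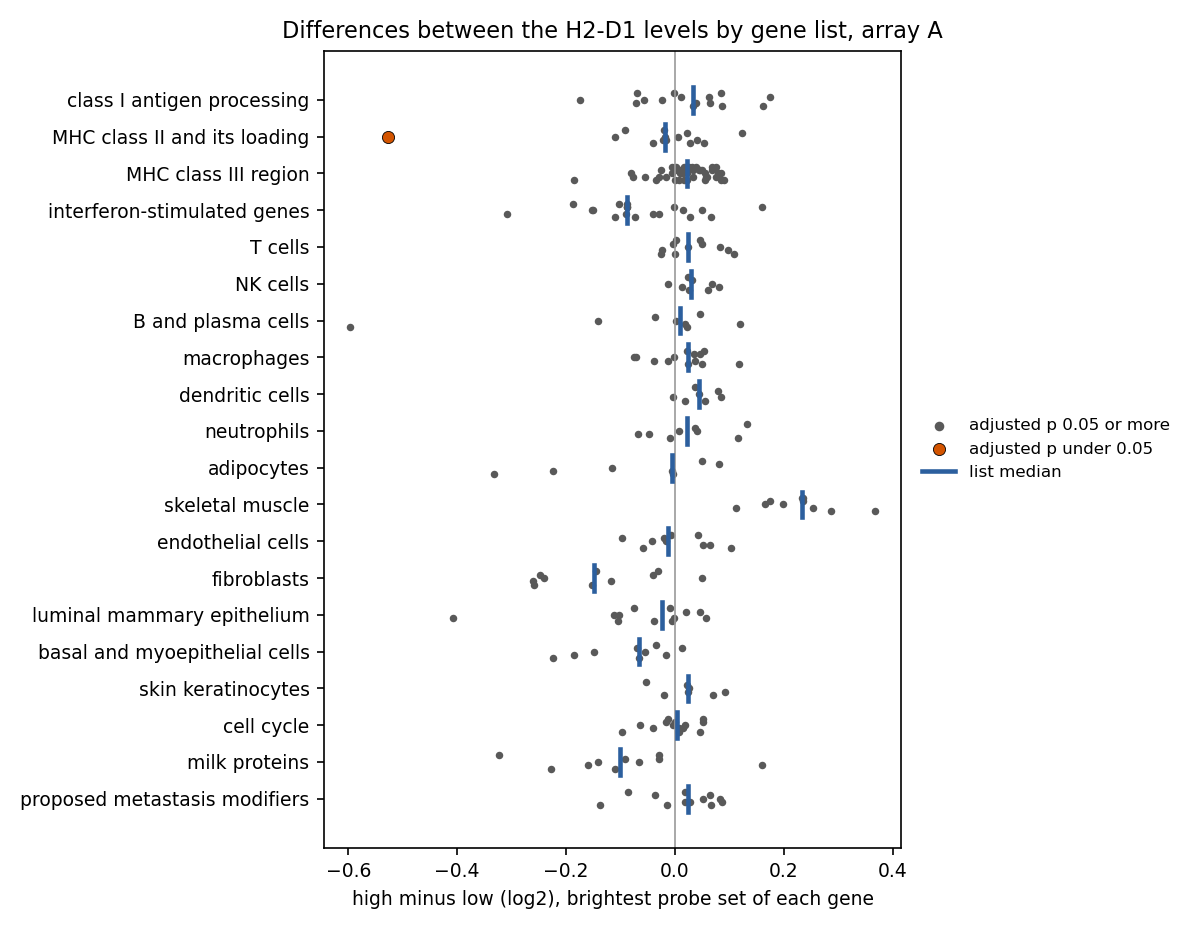
Difference between the levels (high minus low, log2, x axis) for each measured gene of 20 lists (y axis) on array A, by its brightest probe set, with the list's median as a blue bar. H2-Ea, in orange, is the one called gene; the fibroblast median is -0.15 and the skeletal muscle median 0.23.

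The probe sets of other chromosomes most like the split were Msl1 (r = -0.66), Adam12 (-0.56), Mcl1 (-0.51), Col1a1 (-0.51) and Mtmr10 (0.49), by Pearson correlation with the H2-D1 probe set over 52 tumours that share sublines. Msl1, a subunit of the MOF histone acetyltransferase complex, ran from 10.02 to 10.40 in the high tumours and from 10.15 to 10.61 in the low ones. Other probe sets of Msl1 differed by -0.15, 0.001 and 0.02 (limma adjusted p = 0.9998 for each). On the one most like the split the groups overlapped, and the difference of -0.18 ± 0.03 did not pass (limma adjusted p = 0.0631). It passed in 6 of 35 alternatives: in the 3 with every tumour as a unit (limma adjusted p = 0.000456, 0.000521 and 0.00104), without subline 21 (0.0269), without replicate 3 (0.0386) and with median centring (0.0480). The adjusted p of the other 4 ran from 0.305 to 0.9998, and of these Col1a1 passed with every tumour as a unit (limma adjusted p = 0.0177, 0.0190 and 0.0291).

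Within a level, the 4 H2-D1 probe sets that part the tumours were set beside the mean of the antigen processing genes and of the interferon-stimulated genes, and 2 of them beside H2-K1. These 18 relations were added after the data were seen, 8 of them having been looked at over tumours first. Permutation tests were run on them, but the probe sets are those the split used or rests on, so the correlations are given as a description with no p. With antigen processing genes r ran from 0.26 to 0.85 over 11 high sublines (rho from 0.35 to 0.82) and from 0.63 to 0.90 over 9 low sublines (rho from 0.47 to 0.73). Without the 2 sublines farthest from the median, r ran from 0.21 to 0.64 and from 0.31 to 0.77. With interferon-stimulated genes r ran from -0.04 to 0.42 at the high level (rho from -0.04 to 0.40) and from -0.01 to 0.62 at the low level (rho from 0.13 to 0.77). Without the 2 farthest sublines these r ran from 0.22 to 0.48 and from -0.003 to 0.83. With H2-K1, r was 0.84 at the high level for the probe set of the split and 0.81 at the low level for the first with the order turned, and 0.74 and 0.37 without the 2 farthest sublines. All are of probe sets on the same arrays, and shared probes among heavy chain genes were not tested.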

How the data were processed

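Expression was measured in 56 tumours on 2 arrays each. The authors deposited log2 values made with RMA, per the submitters' processing notes. No version, probe set definition or build is stated (not given in the sources used here). Both arrays were separate tables and were tested separately. After 64 control probe sets were set aside, 22626 (array A) and 22511 (array B) remained; 20380 and 14661 had 1 symbol, and 20351 and 14486 were placed through the RefSeq gene table of GRCm38.p6, used for names and order. Median correlations between arrays of the tumours used were 0.970 to 0.991 (array A) and 0.973 to 0.991 (array B). The number of arrays limits the precision.

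Tumours of a subline and level were averaged, and levels were compared with limma 3.58.1 (R 4.3.3; lmFit, eBayes), with class I heavy chain probe sets left out. P-values of the fits on subline means measure the spread between those means, where a subline on both levels gives a mean for each. P-values of the fit within such sublines, and of the fits with every tumour as a unit, measure the spread between tumours. On simulated data, changes of 0.5, 1 and 2 on the log2 scale were seeded together. The main fit, on subline means, recovered 94.1% of 68 changes of 0.5 on each array. It made 4 false calls on array A and 6 on array B. Many true changes ease the adjusted limit, so this share does not carry over to the real data. There, 29 array A probe sets differed by 0.5 or more and 3 were called. Replicate numbers did not pair tumours (mean correlation of same-numbered deviations -0.003 on array A and 0.0008 on array B). Named genes were up to 15 called genes of chromosome 17 and of other chromosomes on array A and 8 on array B, up to 4 members per list by p, and the 5 most like the split. The members, the 21 lists and the tests were chosen with earlier results of these data known.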

Additional observations from a re-analysis of the deposited data

Results flagged for a closer look

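For Prss22, the mean of subline 14, 8.92, lay apart from the other 8 low-level sublines, of which the highest was 8.21. The gap was 0.706 of the group's range, above Dixon's limit of 0.493 for 9 values. Chance gives a gap above that limit in about 1 in 20 groups, and 8 groups were examined.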

How the results depend on the processing

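Set against the alternatives, 128 counts were within 1.5 times the main count and 16 were not. The alternatives include level limits of 7.0 and 8.4, which could change no group, since no tumour used lay between 5.95 and 8.74. Their results equal the main ones by design and add to the 128 and to the 35 alternatives below. With every tumour as a unit, array A gave 5 calls on chromosome 17 and 2 on other chromosomes, and array B gave 6 and 1; a random subline block gave 5 and 2, and 6 and 0. With the replicate block the numbers were 5 and 2 on array A and 6 and 1 on array B. All 56 tumours left 1 call on chromosome 17 on array A. Leaving out a subline in turn gave 3 to 4 calls on chromosome 17 and 0 to 1 on other chromosomes on array A, the latter Msl1 without subline 21, and 1 to 5 and 0 on array B, with 5 without subline 14. Counted with probe sets not placed, array A gave 6 calls without subline 14 and 6 without subline 21. Leaving out a replicate number gave 3, and 0 to 1 (1 without replicate 3), on array A, and 1 and 0 on array B. Median centring gave 1 call on another chromosome on array A. The H2-Ea probe set with the largest difference and Vps52 were called in all 35 alternatives, with differences from -2.83 to -2.54 and from 0.80 to 1.11. Prss22 was called in 32 of 35 and the brighter H2-Ea probe set in 33. Both were lost with all 56 tumours, at differences of 0.55 and -0.65 (limma adjusted p = 0.787 for each), Prss22 also with only sublines on 1 level and with the fibroblast score, and H2-Ea also within sublines. Of 1151 list medians 15 moved. Over tumours in place of sublines, 2 of the relations turned sign, to 0.20 (interferon-stimulated genes and the first H2-D1 probe set with the order turned, high level) and 0.0761 (the same list and the probe set of the split, low level). The cause of these changes was not tested.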
